A study of Mus musculus with 6 samples.

Results

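The genes described here are 10 genes of the p53 family and of the BCL2 apoptosis pathway, taken by symbol from a table of 54532 genes: *Trp53*, *Trp63*, *Trp73*, *Mdm2*, *Cdkn1a*, *Bax*, *Bak1*, *Bbc3*, *Pmaip1* and *Bcl2l11*. RNA-seq was performed on mouse testis germ cells labelled as STRA8-positive (STRA8+), STRA8 being the retinoic acid-induced protein of germ cells that enter meiosis. The 3 control libraries are labelled with the genotype Cre, and the 3 conditional knockout (cKO) libraries carry a knockout of *Srsf1*, which encodes a serine/arginine-rich splicing factor. Both groups were given in the labels as testis germ cells, and Cre is the only allele named for the control group. The driver of Cre, the age of the mice, the way the cells were isolated and whether animals were pooled are not given in the labels. Nothing in the labels says that libraries came from separate animals, so p-values measure the spread between these libraries, which may be technical. The question that the design poses for these genes is whether their RNA level differed between *Srsf1* cKO and control cells.

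p53, encoded by *Trp53*, is a transcription factor that accumulates after DNA damage and other stress and binds DNA as a tetramer. It induces *Cdkn1a*, which encodes the cell cycle inhibitor p21, *Mdm2*, which encodes the ubiquitin ligase that returns p53 to low levels, and the death genes *Bbc3* (PUMA), *Pmaip1* (NOXA) and *Bax*. PUMA, NOXA and BIM (*Bcl2l11*) are BH3-only proteins, which bind anti-apoptotic proteins of the BCL2 family, each with its own range of partners, and so free the effectors BAX and BAK to open the outer mitochondrial membrane, after which cytochrome c, APAF1 and caspases dismantle the cell. p63 and p73 are relatives of p53, and in germ cells p63 is best known as the guardian of oocytes. Apoptosis is a normal part of spermatogenesis, in which BAX removes surplus germ cells.

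Of these 10 genes, 5 rose and 2 fell in cKO cells, 1 did not pass the test and 2 were too low to be tested, whereas over all genes tested 11.8% rose and 22.2% fell. *Cdkn1a* stood at 268% of the control mean, *Bbc3* at 248%, *Pmaip1* at 218%, *Trp53* at 160.1% and *Bax* at 129%, while *Mdm2* stood at 80.2% and *Bak1* at 28.8%. *Bak1* reached the level needed for testing only through the control group and so had to differ. In the 6 fits that left out a library, the call of *Bax* held in 1 and that of *Mdm2* in 3.

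The stretches before the start sites of 4 of these genes are shown because each holds a p53 half-site, the 10-base element bound by a pair of p53 subunits (3 purines, C, 2 bases that are A or T, G, 3 pyrimidines). RefSeq start sites on GRCm38.p6 gave windows of 250 bases before to 50 bases after the start for 8 of the 10 genes, in 13 windows, with none for *Trp63* and *Pmaip1*. The element reads alike on both strands. The sequences run 5′ to 3′ on the strand of the gene and end 11 bases before its start, with half-sites in capitals. That of *Cdkn1a* is chr17:29090729-29090968 (plus strand), that of *Trp53* chr11:69580256-69580348 (plus strand), that of *Mdm2* chr10:117710769-117711008 (minus strand) and that of *Bax* chr7:45466909-45467148 (minus strand).
Cdkn1a: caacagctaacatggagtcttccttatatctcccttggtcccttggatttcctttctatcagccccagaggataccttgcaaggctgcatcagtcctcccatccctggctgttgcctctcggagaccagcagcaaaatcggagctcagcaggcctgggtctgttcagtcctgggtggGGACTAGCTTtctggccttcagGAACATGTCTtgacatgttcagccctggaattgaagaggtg
Trp53: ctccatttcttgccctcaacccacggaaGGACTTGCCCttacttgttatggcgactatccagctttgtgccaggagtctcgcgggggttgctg
Mdm2: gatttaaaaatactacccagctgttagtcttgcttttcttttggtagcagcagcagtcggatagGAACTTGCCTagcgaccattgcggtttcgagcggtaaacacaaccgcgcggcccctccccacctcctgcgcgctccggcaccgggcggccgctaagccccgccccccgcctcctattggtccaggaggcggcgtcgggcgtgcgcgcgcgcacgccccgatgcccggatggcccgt
Bax: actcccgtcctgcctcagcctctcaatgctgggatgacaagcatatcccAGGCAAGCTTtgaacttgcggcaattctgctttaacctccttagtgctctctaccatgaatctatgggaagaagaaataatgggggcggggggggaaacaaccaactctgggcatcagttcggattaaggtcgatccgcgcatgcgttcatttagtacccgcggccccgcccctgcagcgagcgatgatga

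A full p53 site is made of a pair of half-sites separated by 0 to 13 bases. Among the 10 genes, only the window of *Cdkn1a* held one, with half-sites starting 73 and 51 bases before the start used. That start lies near the outer end of the annotated gene (first base 29090976, 5 annotated transcripts). Whether it is the main start of *Cdkn1a* was not examined. The stretch that follows the half-site nearer the start misses the pattern only in its opening base and was not counted. The half-site of *Trp53* started 75 bases before its start, that of *Mdm2* 186 bases and that of *Bax* 201 bases. Of all 32851 windows, 8.36% held a half-site and 0.0731% (24 windows) a full site. Of the 25 windows of a list of 30 known p53 target genes, 8 (32%) held a half-site and 0 a full site. A match of letters is a description and not a bound site, and known sites that lie in introns or further upstream are outside these windows.

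The genotype labels and the contents of the libraries were examined first. *Srsf1* was at 84.7, 45.2 and 51.9 FPKM (fragments counted on a gene, divided by its length in kilobases and by library size) in control replicates 1, 2 and 3 and at 5.08, 4.94 and 5.17 FPKM in cKO replicates 1, 2 and 3, which is 8.36% of the control mean. Each library held between 14447887 and 17310353 fragments. *Stra8* was at 261.7, 222.1 and 249.5 FPKM in control libraries and at 242.1, 312.7 and 261.7 FPKM in cKO libraries, so both groups carried the labelled marker at a like level. Markers of germ cell stages differed between the groups. Of 10 spermatid markers, 10 fell, with a summed level of 2498 to 8396 FPKM in control libraries and 5.71 to 6.79 FPKM in cKO libraries, and of 10 pachytene spermatocyte markers 8 fell (711.5 to 881.4 against 119.5 to 138.5 FPKM). Of these, 8 spermatid and 3 pachytene markers reached the mean of 1 FPKM needed for testing only through the control group and so had to differ, which leaves 2 spermatid and 5 pachytene markers that fell and reached it in both groups. Control replicate 2 stood apart within its group in spermatid RNA, with the protamine gene *Prm1* at 719.6, 2431 and 695.6 FPKM in control replicates 1, 2 and 3. Of 10 differentiating spermatogonia markers, among them *Stra8*, 1 fell (795.8 to 860.7 against 861.9 to 984.3 FPKM), and of 10 early meiotic prophase markers 2 fell (1045 to 1391 against 1017 to 1340 FPKM). Of 9 tested markers of undifferentiated spermatogonia, 1 rose and 1 fell. Of 8 Sertoli cell markers 1 rose, *Rhox5* (summed level 70.1 to 104.9 against 58.1 to 148.3 FPKM, the highest in cKO replicate 1), and no tested marker of Leydig cells, peritubular cells, macrophages or blood passed the test. No marker was at 0 in all libraries. In bulk RNA, fewer cells of a type cannot be told apart from less RNA per cell, and the part of the difference in stages in the results that follow was not tested. A scaling of each library to the markers of differentiating spermatogonia and early prophase, which divided control libraries by 0.896 to 1.096 and cKO libraries by 0.932 to 1.13, cannot bear on it, since these factors averaged nearly the same in both groups. It left the log2 fold changes given below nearly as they were and changed the spread between libraries.

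The test was limma on log2(FPKM + 1), cKO against control, over the 15451 genes whose mean reached 1 FPKM, and a gene was called at a Benjamini-Hochberg adjusted p of at most 0.05. Log2 fold changes are on that scale, on which changes of genes with low FPKM come out too small. Of the 8 pathway genes tested, 5 rose (62.5%, against 11.8% of all genes tested) and 2 fell (25%, against 22.2%). Their median log2 fold change was 0.50, against -0.0082 for all genes. The 2 genes under the filter also had groups that did not overlap, so that 6 of the 10 genes were higher in every cKO library than in any control library, 3 were lower and 1 overlapped. Over all genes tested, the groups did not overlap for 50.4%. Without control replicate 2, 7 of the 10 genes were tested, of which 5 rose and 1 fell, and without cKO replicate 1, 8 were tested, of which 4 rose and 1 fell. Without control replicate 1, 7 were tested, of which 4 rose and 0 fell. *Bak1* passed the filter only through the control group, so that it had to differ.

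**Figure D1:**
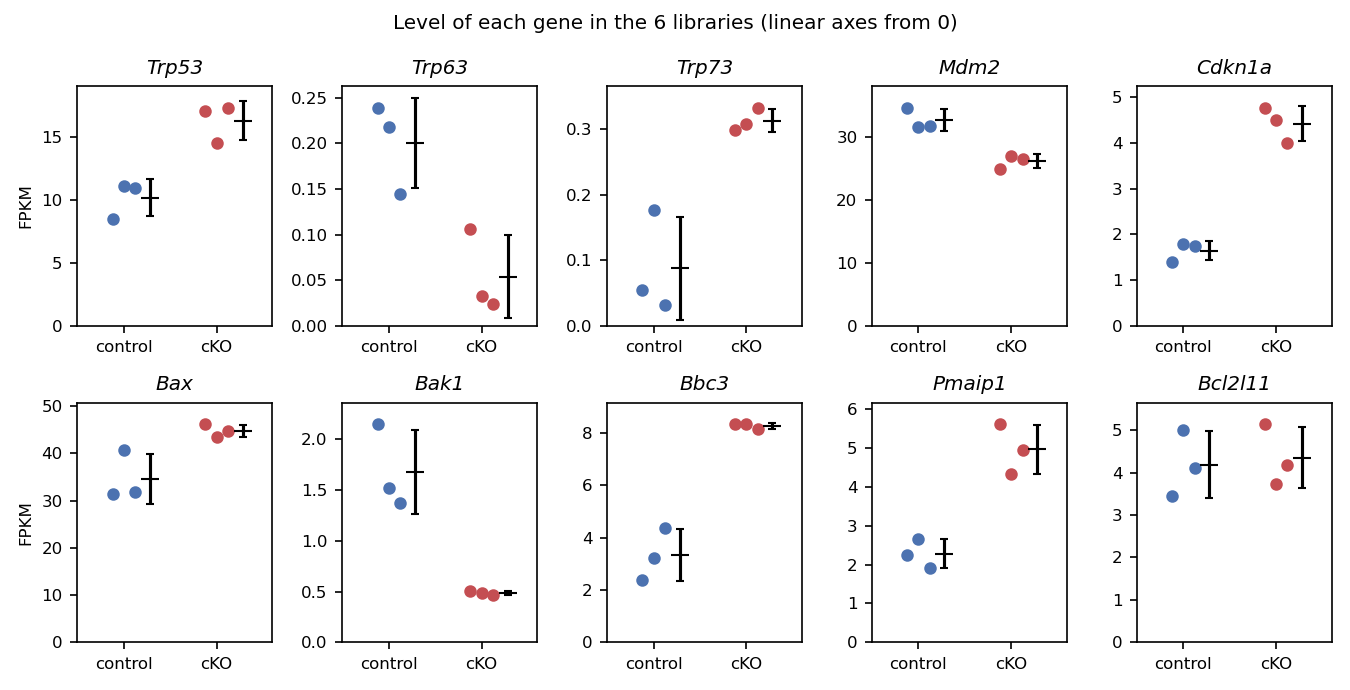
Level in FPKM (linear axis from 0) of each of the 10 genes, with a point for each of 3 control and 3 cKO libraries and the mean ± SD beside them. The groups overlap only for *Bcl2l11*, and *Trp63* and *Trp73* reach at most 0.239 and 0.333 FPKM.

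*Trp53* (chr11:69580359-69591873, plus strand) rose. It was at 8.51, 11.1 and 10.9 FPKM in the control libraries and at 17.1, 14.5 and 17.3 FPKM in the cKO libraries. Every cKO library lay above every control library, and the lowest values of each group were those of control replicate 1 and cKO replicate 2. The mean went from 10.2 ± 1.46 to 16.3 ± 1.55 FPKM (SD, n = 3), a log2 fold change of 0.63 (SE 0.12, limma adjusted p = 0.00799). The call was lost when libraries were scaled to the stage markers, at a log2 fold change of 0.64 (limma adjusted p = 0.0588).

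*Trp63* and *Trp73*, the relatives of *Trp53*, were both near the limit of detection and under the filter. *Trp63* (chr16:25683763-25892102, plus strand) was at 0.239, 0.218 and 0.145 FPKM in control libraries and 0.106, 0.0326 and 0.0235 FPKM in cKO libraries. These values rested on 33, 28 and 21 fragments against 14, 4 and 3 fragments. *Trp73* (chr4:154056253-154140208, minus strand) went the other way, at 0.0549, 0.177 and 0.0313 FPKM in control libraries and 0.299, 0.309 and 0.333 FPKM in cKO libraries. It was counted with 5, 15 and 3 fragments in control libraries and 26, 25 and 28 in cKO libraries, so even its highest library held few fragments. Without the filter on FPKM, over 35994 genes, *Trp73* passed the test at a log2 fold change of 0.27 (SE 0.07, limma adjusted p = 0.0436) and *Trp63* did not, at -0.19 (SE 0.06, limma adjusted p = 0.0707). In both groups *Trp53* was by far the most abundant of the 3 family genes per length.

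*Mdm2* (chr10:117688875-117710758, minus strand), the ubiquitin ligase that holds p53 down, fell slightly. Control libraries were at 34.6, 31.5 and 31.7 FPKM and cKO libraries at 25.0, 27.0 and 26.5 FPKM. The groups did not overlap and the spread within each was small, with means of 32.6 ± 1.73 and 26.2 ± 1.08 FPKM (SD, n = 3). The log2 fold change was -0.31 (SE 0.07, limma adjusted p = 0.0159). The call was lost without control replicate 1, without cKO replicate 1 and without cKO replicate 3 (limma adjusted p = 0.0545, 0.0543 and 0.0537), and when libraries were scaled to the stage markers (0.0691, at a log2 fold change of -0.30). With the replicate number as a block the adjusted p was 0.0788, and with quantile normalization 0.0579.

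*Cdkn1a* (chr17:29090976-29100727, plus strand), the p53 target that halts the cell cycle, rose from a low level. It was at 1.40, 1.80 and 1.74 FPKM in control libraries and at 4.76, 4.50 and 4.0 FPKM in cKO libraries. The lowest cKO library stood well above the highest control library. The means of 1.65 ± 0.215 and 4.42 ± 0.388 FPKM (SD, n = 3) gave a log2 fold change of 1.03 (SE 0.12, limma adjusted p = 0.000846). On the recovered fragments, 82, 98 and 107 in control and 266, 234 and 216 in cKO libraries, limma-voom gave a log2 fold change of 1.48 (adjusted p = 0.000465). A gene annotated on the opposite strand shared 273 bases (7.68%) of the exons of *Cdkn1a* and averaged 0.638 FPKM in control libraries and 0.103 FPKM in cKO libraries. The call of *Cdkn1a* held in every alternative in which the gene was tested.

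The effector genes *Bax* and *Bak1*, either of which can form the pore in the mitochondrial membrane, went in opposite directions. *Bax* (chr7:45461697-45466898, minus strand) was at 31.3, 40.7 and 31.9 FPKM in control libraries and at 46.2, 43.5 and 44.7 FPKM in cKO libraries. Control replicate 2 came close to the cKO libraries, yet the groups did not overlap. The mean rose from 34.6 ± 5.26 to 44.8 ± 1.35 FPKM (SD, n = 3), a log2 fold change of 0.37 (SE 0.11, limma adjusted p = 0.0370). This call was close to the threshold. It was lost without control replicate 1 (limma adjusted p = 0.114), without control replicate 3 (0.116), without cKO replicate 1 (0.103), without cKO replicate 2 (0.0710) and without cKO replicate 3 (0.101), and it was lost when libraries were scaled to the stage markers (0.194, at a log2 fold change of 0.38), when the replicate number entered as a block (0.0850), without the filter on FPKM (0.0685) or without the trend (0.0598). The log2 fold change lay between 0.31 and 0.49 over the fits that left out a library.

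*Bak1* (chr17:27019810-27029009, minus strand) was at 2.14, 1.52 and 1.37 FPKM in control libraries and at 0.502, 0.482 and 0.465 FPKM in cKO libraries. All cKO libraries lay below all control libraries and were close to each other. The mean fell from 1.68 ± 0.411 to 0.483 ± 0.0189 FPKM (SD, n = 3), a log2 fold change of -0.84 (SE 0.16, limma adjusted p = 0.00761). With quantile normalization the log2 fold change was -0.35 (limma adjusted p = 0.152), and without control replicate 1 or control replicate 2 the gene fell under the filter. *Bak1* is overlapped on the opposite strand by *Ggnbp1*, which encodes gametogenetin-binding protein 1. In GENCODE M21, 614 bases (25.5%) of the exons of *Bak1* also lay in exons annotated to *Ggnbp1*, whose row in the table covers a locus that this annotation splits into several gene entries. *Ggnbp1* was at 27.9, 27.6 and 23.5 FPKM in control libraries and at 1.11, 0.846 and 1.00 FPKM in cKO libraries, or 3.74% of the control mean. It held 3190, 2940 and 2825 fragments in control and 121, 86 and 106 in cKO libraries, against 85, 56 and 57 and then 19, 17 and 17 fragments for *Bak1*. Whether strand was used in counting is not given in the sources used here, so reads of the 2 genes cannot be told apart, and the part of *Ggnbp1* in the fall of *Bak1* was not tested.

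**Figure D2:**
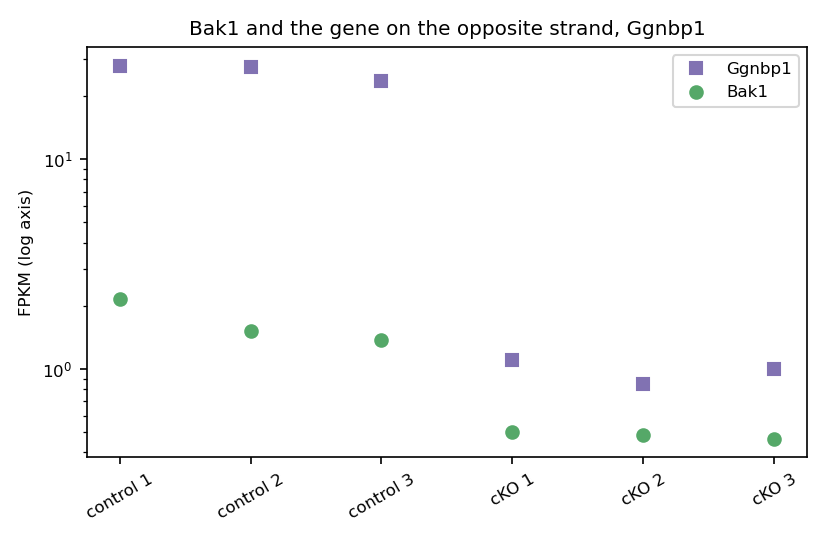
FPKM (log axis) of *Bak1* (circles) and of *Ggnbp1* (squares), which overlaps it on the opposite strand, in each of the 6 libraries. Both genes are lower in all 3 cKO libraries, *Bak1* at 28.8% and *Ggnbp1* at 3.74% of the control mean.

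Of the 3 BH3-only genes, *Bbc3* and *Pmaip1* rose and *Bcl2l11* did not pass the test. *Bbc3* (chr7:16308393-16318205, plus strand), which encodes PUMA, was at 2.40, 3.23 and 4.38 FPKM in control libraries and at 8.33, 8.33 and 8.15 FPKM in cKO libraries. The cKO libraries were nearly equal and far above all control libraries. Its mean went from 3.34 ± 0.995 to 8.27 ± 0.105 FPKM (SD, n = 3), the log2 fold change was 1.12 (SE 0.17, limma adjusted p = 0.00252). On this scale its rise was larger than that of *Cdkn1a*, while that of *Cdkn1a* was larger as a share of the control mean, with limma-voom and at a pseudocount of 0.1. Without control replicate 1 the log2 fold changes on this scale were nearly alike, at 0.959 for *Bbc3* and 0.966 for *Cdkn1a*.

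*Pmaip1* on chromosome 18, which encodes NOXA, a BH3-only protein that binds MCL1, was at 2.25, 2.66 and 1.92 FPKM in control libraries and at 5.60, 4.34 and 4.95 FPKM in cKO libraries. The groups did not overlap. The mean rose from 2.28 ± 0.371 to 4.96 ± 0.634 FPKM (SD, n = 3), with a log2 fold change of 0.86 (SE 0.14, limma adjusted p = 0.00327). The calls of *Bbc3* and *Pmaip1* held in every alternative in which they were tested, except that *Pmaip1* lay below a minimum log2 fold change of 1. A mean of at least 5 FPKM was reached by *Bbc3* only through the cKO group, so that its call under that filter is no support.

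*Bcl2l11* (chr2:128126038-128162547, plus strand), which encodes BIM, was at 3.44, 5.01 and 4.11 FPKM in control libraries and at 5.14, 3.73 and 4.17 FPKM in cKO libraries. The groups overlapped throughout. Its log2 fold change was 0.05 (SE 0.16, limma adjusted p = 0.838), with a 95% interval from -0.32 to 0.42, so that a moderate change in either direction is within the error.

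The order of the 10 genes by level per length was in part the same in both groups. In control libraries *Bax* (mean 34.6 FPKM) and *Mdm2* (32.6 FPKM) led and overlapped each other, followed by *Trp53* (10.2 FPKM). *Bcl2l11*, *Bbc3*, *Pmaip1*, *Bak1* and *Cdkn1a* then lay between 4.19 and 1.65 FPKM, with each overlapping the next, and *Trp63* and *Trp73* came last. In cKO libraries *Bax*, *Mdm2* and *Trp53* were again first, now without overlap, and *Bbc3* stood alone after them at 8.27 FPKM. *Pmaip1*, *Cdkn1a* and *Bcl2l11* followed, between 4.96 and 4.35 FPKM and each overlapping the next, and then *Bak1*, *Trp73* and *Trp63* without overlap.

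The levels of the BCL2 genes among the 10 and of the anti-apoptotic genes were then summed in each library, as a description with no test. *Bax* and *Bak1* together came to 33.5, 42.2 and 33.2 FPKM in control libraries and to 46.7, 43.9 and 45.1 FPKM in cKO libraries, nearly all of it *Bax*. *Bbc3*, *Pmaip1* and *Bcl2l11* together came to 8.09, 10.9 and 10.4 FPKM in the control group and to 19.1, 16.4 and 17.3 FPKM in cKO libraries. The 8 anti-apoptotic BCL2 genes came to 76.4, 72.6 and 73.5 FPKM in the control group and to 68.8, 70.3 and 68.3 FPKM in cKO libraries. None of these 3 sums overlapped between the groups, which was also so for 50.4% of all single genes tested. The ratio of the sum of the BH3-only genes *Bbc3*, *Pmaip1* and *Bcl2l11* to the anti-apoptotic sum was 0.106, 0.150 and 0.142 in control and 0.277, 0.233 and 0.253 in cKO libraries. With *Bid*, *Bad*, *Bik*, *Bmf* and *Hrk* added, which were summed after the first sums had been seen, the ratio changed less as a fold, from 0.426, 0.574 and 0.521 to 0.772, 0.632 and 0.748. The 10 other pro-apoptotic genes summed to 101.6, 121.3 and 101.03 FPKM in the control group and to 110.9, 104.7 and 118.6 FPKM in the cKO group, with overlap. With these 10 genes included, the ratio of all pro-apoptotic to anti-apoptotic genes was 1.87, 2.40 and 1.97 in control and 2.57, 2.35 and 2.65 in cKO libraries, and the groups overlapped.

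**Figure D3:**
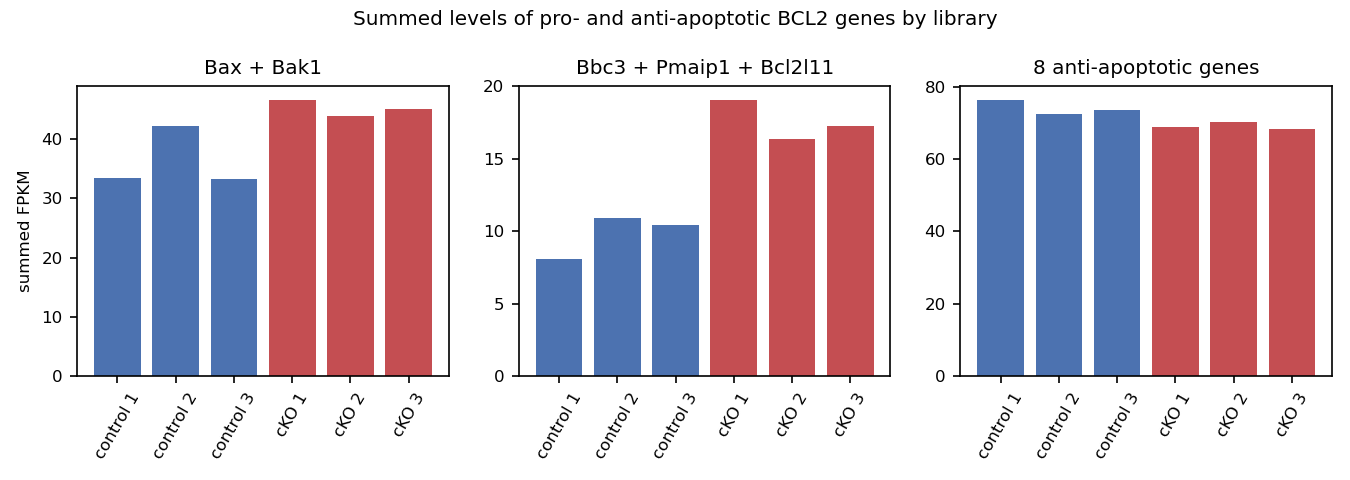
Summed FPKM (linear axes from 0) of *Bax* and *Bak1*, of the BH3-only genes *Bbc3*, *Pmaip1* and *Bcl2l11*, and of 8 anti-apoptotic BCL2 genes, with a bar for each of the 6 libraries. The BH3-only sum is 8.09 to 10.9 FPKM in the control group and 16.4 to 19.1 FPKM in the cKO group, and the anti-apoptotic sum is 72.6 to 76.4 and 68.3 to 70.3 FPKM.

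The anti-apoptotic sum was carried by *Mcl1* and *Bcl2l1*. Of 8 anti-apoptotic BCL2 genes 3 were tested, and 1 of them fell (33.3%, against 22.2% of all genes tested). *Bcl2l1*, which encodes BCL-XL, was at 27.9, 25.2 and 25.4 FPKM in control libraries and at 18.8, 20.4 and 19.2 FPKM in cKO libraries, with no overlap (log2 fold change -0.41, SE 0.07, limma adjusted p = 0.00587). *Mcl1*, which encodes the short-lived guard MCL1, was at 43.5 ± 0.984 and 44.6 ± 0.754 FPKM in the control and cKO group (SD, n = 3), with a log2 fold change of 0.04 and a 95% interval from -0.10 to 0.17. *Bcl2* itself was barely present, at a mean of 0.0552 and 0.103 FPKM in the control and cKO group, under the filter.

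Among 30 known p53 targets other than the 10 genes, 26 were tested, of which 9 rose (34.6%, against 11.8% of all genes tested) and 1 fell (3.85%, against 22.2%), with a median log2 fold change of 0.15. The 16 others did not pass the test. Among the targets tested, the largest rises were those of *Ddit4*, an inhibitor of mTORC1 (5.75 to 12.8 FPKM, log2 fold change 1.04), and *Plk2*, a polo-like kinase (3.06 to 6.11 FPKM, 0.81). Next came *Tnfrsf10b*, the receptor of the death ligand TRAIL (2.25 to 4.26 FPKM, 0.70), *Ccng1*, which encodes cyclin G1 (8.97 to 15.1 FPKM, 0.69), and the antiproliferative gene *Btg2* (8.53 to 14.3 FPKM, 0.68). Among the cKO libraries, 4 of these genes (*Tnfrsf10b* being the exception) were highest in cKO replicate 1, which also held the most Sertoli cell RNA, with *Clu* at 79.3, 32.6 and 44.4 FPKM in cKO replicates 1, 2 and 3. All 5 kept their call whichever library was left out, and without cKO replicate 1, 7 of the targets rose. Among the 10 genes, *Cdkn1a*, *Pmaip1* and *Bax* were also highest in cKO replicate 1 of the cKO libraries. *Bbc3* was nearly equal across these libraries, and *Trp53* was highest in cKO replicate 3. The part of Sertoli cell RNA in the rises of the targets and of the 10 genes was not tested. *Ptp4a3*, a phosphatase gene, was the 1 target that fell (25.3 to 13.2 FPKM, -0.88).

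Of 21 regulators of p53, all tested, 7 rose (33.3%, against 11.8% of all genes tested) and 2 fell (9.52%, against 22.2%), with a median log2 fold change of -0.14. With a library left out, 3 to 4 of them rose and 0 to 5 fell. *Atm*, the kinase that signals DNA breaks to p53, rose from 33.3 ± 3.93 to 50.9 ± 6.55 FPKM (SD, n = 3, log2 fold change 0.60, limma adjusted p = 0.0104), and *Crebbp*, an acetyltransferase gene, from 13 ± 0.769 to 19.5 ± 3.05 FPKM (log2 fold change 0.55, limma adjusted p = 0.0117). Both calls held whichever library was left out, and when libraries were scaled to the stage markers that of *Crebbp* was lost at a log2 fold change of 0.55 (limma adjusted p = 0.0628). The same scaling also ended the calls of *Cdkn2a* at 0.33 (limma adjusted p = 0.0949), *Cop1* at -0.40 (0.0656) and *Rpl11* at -0.33 (0.0554). *Cdkn2a*, which encodes both p16 and the MDM2 inhibitor p19ARF and whose products the table does not separate, rose from 64.0 to 80.3 FPKM (log2 fold change 0.32), a call lost without control replicate 3 (limma adjusted p = 0.0512). *Trp53bp2*, which encodes the p53-binding protein ASPP2, rose by 0.37 on the log2 scale, a call lost whichever of the 6 libraries was left out (limma adjusted p from 0.0508 to 0.0798). *Cop1*, a ubiquitin ligase gene, fell by 0.41 on the log2 scale, and its call held only without control replicate 2 (limma adjusted p up to 0.0669). *Rpl11*, a ribosomal protein gene whose product can bind MDM2, fell by 0.33, a call lost without cKO replicate 3 (limma adjusted p = 0.0586). *Mdm4*, the relative and partner of *Mdm2*, went from 12.8 to 10.2 FPKM and did not pass the test (log2 fold change -0.30, limma adjusted p = 0.0599). It passed with limma-voom (adjusted p = 0.0449) and without control replicate 2 (limma adjusted p = 0.0480).

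Of 10 other pro-apoptotic BCL2 genes 9 were tested, of which 2 rose and 2 fell (22.2% each, against 11.8% and 22.2% of all genes tested). Of the 2 that fell, *Bcl2l14* passed the filter only through the control group, so the share that fell cannot be read as a result. Of the 8 genes that reached the filter in both groups 3 were called, *Bid* and *Bnip3* higher and *Bad* lower. *Bid*, whose product links death receptors to the mitochondria, rose from 9.73 to 14.4 FPKM (log2 fold change 0.52), and *Bnip3*, a mitophagy receptor gene, from 27.7 to 36.7 FPKM (0.39). *Bid* lost its call without control replicate 1, control replicate 3, cKO replicate 1 or cKO replicate 3 (limma adjusted p up to 0.0732). The BH3-only gene *Bad* fell from 10.03 to 7.66 FPKM (-0.35), a call lost without control replicate 3 or cKO replicate 3 (limma adjusted p up to 0.0714). *Bad* shares 524 exon bases (20.5%) with *Gpr137* on the opposite strand, which went from 16.6 to 6.64 FPKM. *Bcl2l14*, which encodes BCL-G, fell from 8.59, 18.9 and 7.67 FPKM to 0.0155, 0.0167 and 0.0804 FPKM (-3.51). It rested on 579, 1187 and 543 fragments in control libraries and on 1, 1 and 5 in cKO libraries, and like *Bak1* it passed the filter only through the control group, so that it had to differ. When libraries were scaled to the stage markers, *Bid*, *Bnip3* and *Bad* lost their calls at log2 fold changes of 0.53, 0.40 and -0.34 (limma adjusted p = 0.116, 0.0741 and 0.112).

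Downstream of the mitochondria, 20 of 24 caspase pathway genes were tested, of which 5 rose (25%, against 11.8% of all genes tested) and 2 fell (10%, against 22.2%), with a median log2 fold change of 0.17. *Endog*, which encodes a mitochondrial nuclease, rose from 7.42 ± 0.515 to 11.5 ± 0.317 FPKM (SD, n = 3, log2 fold change 0.57, limma adjusted p = 0.00221), although 35.7% of its exon bases also lie in *Spout1* on the opposite strand, which went from 16.9 to 8.52 FPKM. The caspase inhibitor *Xiap* (log2 fold change 0.35), *Aifm1* (0.29), *Casp2* (0.27) and the somatic cytochrome c gene *Cycs* (20.5 to 24.6 FPKM, 0.25) rose less. The testis form of cytochrome c, *Cyct*, fell from 42.8 to 23.3 FPKM (-0.84) and *Htra2*, a mitochondrial protease gene, from 20.7 to 15.3 FPKM (-0.41). *Htra2* shares 753 exon bases (25.6%) with *Aup1*, which went from 27.5 to 21.9 FPKM, and 535 (18.2%) with *Loxl3*, which went from 2.50 to 4.42 FPKM, both on the opposite strand. Of these 7 calls only that of *Endog* held whichever library was left out, the adjusted p of limma reaching 0.0707 for *Cyct* without control replicate 1, cKO replicate 1 or cKO replicate 2, and 0.128 for *Cycs*. *Xiap* and *Casp2* kept theirs only without cKO replicate 1, *Cycs* only without control replicate 1 and *Htra2* only without control replicate 2 or cKO replicate 2, while *Aifm1* lost its call without control replicate 3 or cKO replicate 3. Scaling to the stage markers ended the calls of *Xiap*, *Aifm1*, *Casp2* and *Cycs* at log2 fold changes of 0.36, 0.30, 0.28 and 0.26 (limma adjusted p = 0.0552, 0.117, 0.1002 and 0.0907). *Apaf1*, the scaffold of the apoptosome, went from 6.25 ± 0.0821 to 8.09 ± 0.963 FPKM (SD, n = 3) and just missed the threshold (log2 fold change 0.32, limma adjusted p = 0.0508), which it passed with limma-voom (adjusted p = 0.0102). *Casp9*, which encodes the caspase that the apoptosome activates, did not pass the test (log2 fold change -0.28, 95% interval from -0.63 to 0.07), and its groups overlapped.

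**Figure D4:**
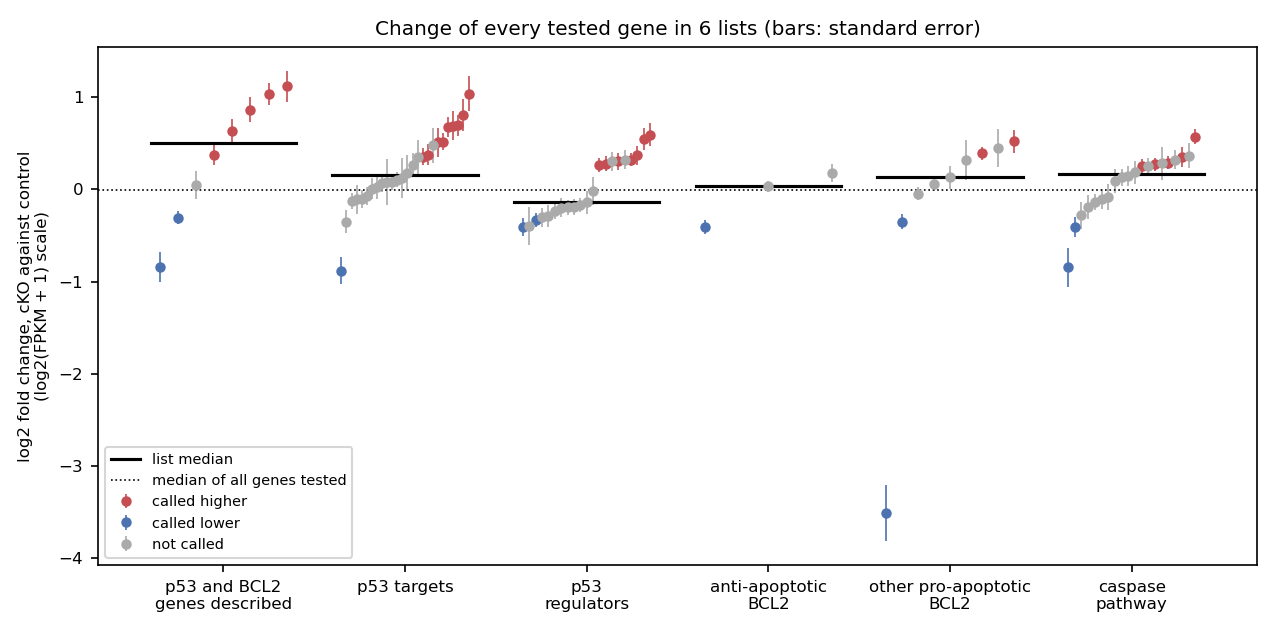
Log2 fold change of cKO against control on the log2(FPKM + 1) scale for every tested gene of the 10 genes and of 5 lists of the pathway, with the standard error as a bar, the list median as a line and the median of all genes tested dotted. The medians are 0.50 for the genes described, 0.15 for p53 targets, -0.14 for p53 regulators and 0.17 for the caspase pathway, and *Bcl2l14* lies lowest at -3.51.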

How the data were processed

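RNA-seq libraries of STRA8+ testis germ cells, 3 control and 3 *Srsf1* cKO, were grouped by their genotype labels. The authors deposited 1 table of FPKM for 54532 genes, with gene lengths and GRCm38 coordinates. Per the submitters' processing notes reads were aligned with HISAT2 2.0.5 to mm10, and the counting tool, strand setting and annotation release are not given in the sources used here. The deposited FPKM times gene length, divided by the value of a single fragment estimated for each library, gave whole fragments for 100% of values (tolerance 0.1). The sum of fragments was 15364511 to 17310353 in control and 14447887 to 15326722 in cKO libraries. A factor for each library, of a kind that the labels do not describe, was already in the FPKM, whose denominator was 0.971 to 1.05 times that sum.

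The 15451 genes whose mean reached 1 FPKM were tested on log2(FPKM + 1) with limma 3.58.1 in R 4.3.3 (lmFit, eBayes with trend, two-sided), with Benjamini-Hochberg adjustment over all of them and a threshold of 0.05. The computation was tested on simulated data. An exact permutation test of 3 libraries against 3 cannot give a p below 0.1. The genes and lists were chosen with earlier results of these data known, so lists are described by counts, medians and summed levels, with no test of their own. All 10 genes are named, and from each other list the called genes with the 6 largest absolute log2 fold changes, plus *Bcl2*, *Bcl2l1*, *Mcl1*, *Mdm4*, *Apaf1*, *Cycs*, *Cyct*, *Casp9* and *Srsf1*. An item of this rule is not reported here.

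Alternatives were a pseudocount of 0.1, no filter or a mean of at least 5 FPKM, median-of-ratios or quantile scaling, no trend, the replicate number as a block, limma-voom on the fragments, FPKM recomputed from summed fragments, a minimum log2 fold change of 1, and each library left out. Scaling to the summed markers of differentiating spermatogonia and early prophase and sums over more pro-apoptotic genes were added after seeing the data. Deviations of same-numbered libraries from their group means correlated at -0.0014, -0.11 and 0.016, against -0.155 to 0.135 for libraries of different numbers. These values showed no pairing by number, but they cannot exclude a shared preparation. Exon overlaps and the share of 100-base windows unique to a gene (90.6% to 100% for the 10 genes) were taken from GENCODE M21, and promoters from RefSeq. That share was lower for some called genes of the lists, among them *Endog* (70.6%), *Htra2* (74.3%), *Bnip3* (75.4%), *Cycs* (77.4%) and *Rpl11* (84.4%). The part of shared sequence in their changes was not tested.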

Additional observations from a re-analysis of the deposited data

How the results depend on the processing

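Over all genes, 1821 rose and 3437 fell. The number that rose was 5164 with quantile normalization, under which the median over all genes went from -0.0082 to 0.21 on the log2 scale, 891 with the replicate block, 177 at a log2 fold change of at least 1, 1048 with scaling to the stage markers and 965 to 1752 with a library left out. The number that fell was 1950 at a mean of at least 5 FPKM and 1939 at a log2 fold change of at least 1. On the recovered fragments limma-voom called 2482 genes higher and 3334 lower. Of the 10 genes, 3 rose at a mean of at least 5 FPKM (among them *Bbc3*, which reached it only through the cKO group), 2 (*Bbc3* and *Cdkn1a*) at a log2 fold change of at least 1 and 3 (*Bbc3*, *Pmaip1* and *Cdkn1a*) with scaling to the stage markers. The number of the 10 that fell was 1 at a mean of at least 5 FPKM, 0 with quantile normalization, 1 with the replicate block, 0 at a log2 fold change of at least 1, 1 with scaling to the stage markers and 0 to 2 with a library left out. Of p53 targets 1 rose and 0 fell at a log2 fold change of at least 1, and 2 fell without the trend. Of p53 regulators, 4 rose without the filter, 3 without the trend, 3 with the replicate block, 0 at a log2 fold change of at least 1, 2 with scaling to the stage markers and 3 to 4 with a library left out, while 1 fell at a mean of at least 5 FPKM, with quantile normalization and with the replicate block, 0 at a log2 fold change of at least 1 and with scaling to the stage markers, and 0 to 5 with a library left out. Of anti-apoptotic genes 1 rose with quantile normalization and 0 fell at a log2 fold change of at least 1. Of the other pro-apoptotic genes, 6 rose with quantile normalization, 1 with the replicate block, 0 at a log2 fold change of at least 1 and with scaling to the stage markers, and 1 to 3 with a library left out, while 1 fell under each of quantile normalization, the replicate block, limma-voom, a log2 fold change of at least 1 and scaling to the stage markers, and 1 to 2 with a library left out. Of caspase pathway genes, 3 rose without the filter, 11 with quantile normalization, 1 with the replicate block, 0 at a log2 fold change of at least 1, 1 with scaling to the stage markers and 1 to 4 with a library left out, while 1 fell without the filter, with quantile normalization and with the replicate block, 0 at a log2 fold change of at least 1 and 0 to 2 with a library left out. The log2 fold change of *Bcl2l11* ran from -0.0597 to 0.158 with a library left out and was below 0 without control replicate 1 or cKO replicate 1, and that of *Casp9* was 0.0151 with quantile normalization. No call among the 10 genes changed direction. Genes with a mean under 5 FPKM were not tested under the stricter filter, and the cause of the other changes was not tested. The correlations between libraries showed no pairing by number, which they cannot exclude. *Trp63* and *Trp73* rested on 3 to 33 fragments per library, and small changes of these genes were not detectable at this depth.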
